A study of Homo sapiens and Mus musculus with 20 samples.

Results

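The cholesterol synthesis genes examined here are 8 genes, HMGCS1, IDI1, FDFT1, SQLE, LSS, SC5D, INSIG1 and SREBF2, found by symbol in the RNA-seq libraries of IMR90 cells, a line of human fetal lung fibroblasts. All 8 were listed in every one of the 12 libraries, among 17554 genes listed in any library and 11994 listed in all of them. The series holds 20 libraries in all, and the 8 from skeletal muscle were not used. The study asked how the enzymes that write and erase histone lactylation, and the supply of lactate, act on cellular senescence.

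The 12 libraries formed 3 separate experiments of 4 libraries, each with 2 treated and 2 untreated libraries of wild-type (WT) cells. In the first, cells received A485, an inhibitor of the acetyltransferase and lactyltransferase p300, and were compared with the group named Control2. In the second, cells received MS-275, which inhibits the class I HDACs (histone deacetylases), and were compared with Control3. In the third, cells received pyruvate, which the study describes as given to senescent cells, and were compared with Control6. The labels give the treatment of every control group as none and do not say whether replicates were separate cultures, so p-values measure the spread between these libraries, which may be technical. IMR90 is 1 line, and each group is 1 treatment of that line.

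HMGCS1 (HMG-CoA synthase, chr5:43287470-43313512, minus strand) makes the precursor of mevalonate. IDI1 (chr10:1039152-1049119, minus strand) isomerises the first isoprenoid unit, and FDFT1 (squalene synthase, chr8:11795573-11839395, plus strand) joins farnesyl units into squalene. SQLE (squalene epoxidase, chr8:124998497-125022283, plus strand) and LSS (lanosterol synthase, chr21:46188141-46228824, minus strand) make the first sterol. SC5D (sterol C5-desaturase, chr11:121292681-121313410, plus strand) acts near the end of the pathway. INSIG1 (chr7:155297776-155310235, plus strand) is the retention protein, and SREBF2 (chr22:41833105-41907306, plus strand) encodes SREBP2. Coordinates are those of the GENCODE annotation on GRCh38, the build the authors aligned to, and values are read counts over the exons of the whole gene.

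Cells make cholesterol from acetyl-CoA through the mevalonate pathway, then through squalene and lanosterol. The transcription factor SREBP2 is held in the endoplasmic reticulum by INSIG proteins and the escort protein SCAP while sterols are abundant. When sterols fall it moves to the Golgi, is cut free and switches on the enzymes of the pathway and its own gene. INSIG1 is itself a target, which closes a feedback loop, and fibroblasts in culture run this loop according to the sterols their medium supplies.

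Promoter sequence is shown for 3 of them, HMGCS1 because it rose furthest with pyruvate, INSIG1 because it was the gene called with A485, and SREBF2 because it encodes the factor and holds a sterol regulatory element. Windows from RefSeq (GRCh38.p14), from 250 bases before to 50 bases after an annotated start, matched 6 of the 8 genes and 27305 gene symbols in all. Both strands were searched for the sterol regulatory element core TCACNCCAC, the NF-Y box CCAAT and the E-box CACGTG. Matches are in capitals, and no match overlaps another in the stretches shown. Each stretch is printed 5′ to 3′ on the strand of the gene and ends before the first base that RefSeq or GENCODE annotates as transcribed.
HMGCS1: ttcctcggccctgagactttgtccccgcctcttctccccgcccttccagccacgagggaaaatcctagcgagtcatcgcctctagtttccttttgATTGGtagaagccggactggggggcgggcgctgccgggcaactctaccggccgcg
INSIG1: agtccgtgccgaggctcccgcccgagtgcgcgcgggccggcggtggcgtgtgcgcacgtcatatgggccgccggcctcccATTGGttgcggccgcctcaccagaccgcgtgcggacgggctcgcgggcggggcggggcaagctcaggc
SREBF2: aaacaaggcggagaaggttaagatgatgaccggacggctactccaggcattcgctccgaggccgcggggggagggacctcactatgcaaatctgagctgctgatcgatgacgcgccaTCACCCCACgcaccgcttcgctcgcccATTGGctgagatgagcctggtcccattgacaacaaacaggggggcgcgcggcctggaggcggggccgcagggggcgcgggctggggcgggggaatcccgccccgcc
These lie at chr5:43313513-43313662 (minus strand), chr7:155297628-155297775 (plus strand) and chr22:41832855-41833104 (plus strand). In SREBF2 the core TCACCCCAC began at position -133 from the start and an inverted CCAAT box followed at -106. The core was found in 1 of the 6 members with a window, against 1.39% of all gene symbols, and in none of the 48 windowed genes of the other lists described below. A CCAAT box was found in 6 of 6 members against 39.7% of all symbols, and the E-box in 3 of 6, INSIG1, SC5D and LSS, against 8.77%. Among the windowed genes of the other lists together the shares were 62.5% for the CCAAT box and 10.4% for the E-box. A match describes the letters only, and a missing match says nothing of SREBP2 binding elsewhere.

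Sequencing depth was 24179065 to 46971227 reads assigned to genes per library. The 6 fibroblast markers such as COL1A1 and VIM were high in every library, with values from 1756 to 655334. Of 13 markers of other cell types, CDH1 (epithelial), PECAM1 and CDH5 (endothelial) and PTPRC, CD68 and CD3E (leukocyte) were listed in no library. The keratins KRT8 and KRT18 were listed throughout, from 405.4 to 1857, and EPCAM, KRT19, VWF, KDR and LYZ were at 208.2 or less where listed. Replicates of 1 group differed beyond sampling noise in all 6 groups. In bulk RNA, fewer cells of a type and less RNA per cell cannot be told apart. Values below are normalised read counts, reads divided by the size factor of the library within its own experiment, so levels are compared within an experiment only.

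Per kilobase of transcript, FDFT1 was the most abundant member in all 6 groups, at 2830 ± 55.6 (SD, n = 2) in Control2, 4396 ± 253 in Control3 and 2853 ± 104 in Control6. SREBF2 came next in all groups but the pyruvate group, where SQLE stood at 1165 and SREBF2 at 744.5 per kilobase. LSS was the least abundant in 4 of the groups, at 154.6 in Control2 and 184.0 in Control3. In Control6 the lowest was HMGCS1, at 16.0 per kilobase, and in the pyruvate group SC5D, at 62.1. In Control6, INSIG1, IDI1, SC5D and HMGCS1 all lay below LSS. Neighbours in this order were often not separated, and in Control3 the ranges of SREBF2, SQLE, IDI1 and INSIG1 overlapped one another.

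**Figure D1:**
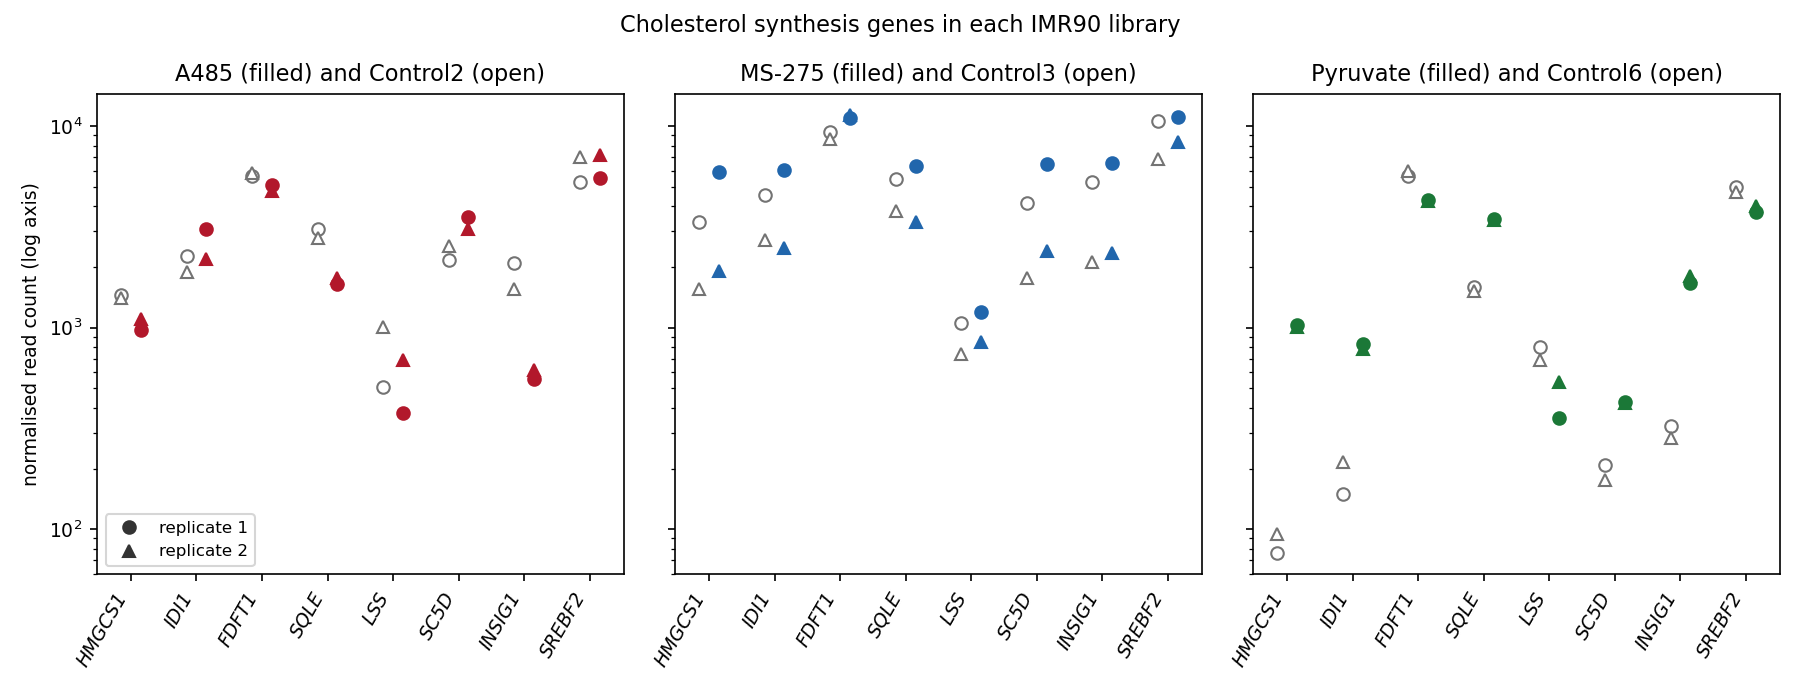
Normalised read count (log axis) of each of the 8 genes in every library, with 1 panel per experiment, open symbols for controls, filled symbols for treated libraries, circles for replicate 1 and triangles for replicate 2. INSIG1 separated with A485, both groups of the MS-275 experiment split by replicate number, and HMGCS1, IDI1, SQLE, SC5D and INSIG1 stood higher in both pyruvate libraries.

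A485 treatment led to lower expression of INSIG1 and, by less than 2-fold, of SQLE, while SREBF2 had a log2 fold change of 0.05. INSIG1 fell 3.07-fold and was the only member called, a call being an adjusted p under 0.05 with a log2 fold change beyond 1 in either direction. Outside the 8 genes, TM7SF2, a sterol reductase of the same pathway, was higher by 3.48 on the log2 scale. The fatty acid genes SCD, FASN and FADS2, which also answer to SREBP factors, were also lower. The fibroblast markers moved in the same comparison. Their summed share of all values was 2.91% to 2.95% in Control2 and 1.27% to 1.37% with A485, and limma called 5 of the 6 lower, COL1A2 being the exception, with PDGFRB going from 14289 and 17153 to 1756 and 1980. The epithelial sum was 0.00629% to 0.00644% in Control2 and 0.0038% to 0.00445% with A485. Within it EPCAM went the other way, from 64.2 and 47.7 to 208.2 and 177.2. The part of either sum in the changes below was not tested.

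INSIG1 was at 2082 and 1552 in the Control2 libraries and at 556.3 and 614.6 in the A485 libraries. Both A485 libraries lay far below both controls. The log2 fold change was -1.62 (95% CI -2.16 to -1.07) with an adjusted p of 0.0106 in limma.
SQLE was at 3082 and 2796 in Control2 and at 1654 and 1757 with A485. The groups did not overlap, and the log2 fold change of -0.78 (CI -1.19 to -0.38) had an adjusted p of 0.0342 in limma, but its size was below the fold threshold. With library totals set equal the value of SQLE was -0.39 (adjusted p = 0.175, limma), where all genes had a median of 0.40.

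HMGCS1, an early enzyme, was at 1448 and 1410 in Control2 and at 972.6 and 1107 with A485. Both treated libraries were lower, and the log2 fold change of -0.46 did not pass the test (adjusted p = 0.153, limma). FDFT1 was at 5679 and 5840 in Control2 and at 5088 and 4775 with A485, a log2 fold change of -0.22 that did not pass either (adjusted p = 0.379, limma). FDFT1 makes the step that commits the pathway to sterols.
LSS ranged from 506.2 to 1005 in Control2 and from 379.3 to 693.0 with A485. Its groups overlapped, and replicate 2 was the higher library in both.
IDI1 stood at 2261 and 1894 in Control2 and at 3073 and 2195 with A485, also overlapping. SC5D was the 1 member with both A485 libraries above both controls, at 2161 and 2548 against 3537 and 3077, and its log2 fold change of 0.49 had an adjusted p of 0.129 in limma. SREBF2, at 5308 and 7021 in Control2 and 5550 and 7155 with A485, had a log2 fold change of 0.05 (CI -0.49 to 0.58). Its 2 replicates differed more from each other than the treatment groups did.

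Of the 8 members, 1 was called lower and 0 higher, where limma called 10.4% of 16084 tested genes, 3.31% higher and 7.06% lower. In all, 4949 genes had an unadjusted p under 0.05. The groups of 5 members did not overlap, 4 lower and 1 higher, against 61% of all genes, so non-overlap was as common among genes at large. The median log2 fold change of the members was -0.34 and that of all genes 0.01. Without A485 replicate 1 the adjusted p of INSIG1 was 0.108 and without A485 replicate 2 it was 0.0825, with log2 fold changes of -1.55 and -1.69. Those fits called 229 and 301 genes in place of 1667. With library totals set equal, all genes had a median of 0.40, the split of calls went from 532 higher and 1135 lower to 1677 and 901, INSIG1 remained called, and FDFT1 took a log2 fold change of 0.17 on that scale, below the shifted median.

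Among the 15 other enzymes of cholesterol synthesis, 1 was called higher and 0 lower, with a median of -0.27. TM7SF2, one of the sterol C14-reductases, rose from 200.1 and 286.4 to 2940 and 2441 (adjusted p = 0.00205, limma). The gene with the next smallest p, PMVK (phosphomevalonate kinase), was at 794.1 and 925.3 in Control2 and 444.2 and 523.7 with A485, and did not pass (adjusted p = 0.0643, limma). The fold change was below 0 for 12 of the 15.

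Of 11 genes for the SREBP machinery, sterol uptake and transport, 1 was called higher and 1 lower. INSIG2, the second INSIG gene, went the other way from INSIG1. It was at 615.3 and 873.9 in Control2 and at 1852 and 1375 with A485, a log2 fold change of 1.12 (adjusted p = 0.0443, limma), and it was not called once length and GC trends were removed. The median of this list was 0.56, above that of the members.

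Fatty acid synthesis had 3 of 10 genes called lower and 0 higher, with a median of -0.82. SCD, the stearoyl-CoA desaturase, was at 11498 and 10099 in Control2 and at 2575 and 1473 with A485, a log2 fold change of -2.47 (adjusted p = 0.0062, limma). FASN, the fatty acid synthase, fell by 1.26 and FADS2, a desaturase, by 1.12 on the log2 scale (adjusted p = 0.0137 and 0.0142, limma). With the length and GC trend removed, FASN was at -1.11 and not called (adjusted p = 0.0501, limma). Of the genes of cholesterol efflux and its sterol-sensing LXR receptors 0 of 6 were called, and NR1H3 and ABCA1, with the smallest p-values, had log2 fold changes of -1.01 and -0.83 (adjusted p = 0.112 and 0.128, limma). Of 5 oxysterol and ester genes 1 was called higher, CYP7B1, an oxysterol hydroxylase listed at 2.1 and 2.4 in Control2 and at 56.5 and 40.1 with A485. CYP7B1 passed the filter, a mean of 10 over the 4 libraries, only through the A485 libraries, so it had to differ to be tested. CYP27A1, with the next smallest p in that list, had a log2 change of 0.96 (adjusted p = 0.175, limma). Of 9 genes that use isoprenoids 0 were called, and DHDDS (dolichol synthesis) and GGPS1 (geranylgeranyl diphosphate synthase) had log2 fold changes of -0.87 and 0.76 (adjusted p = 0.0489 and 0.0819, limma).

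**Figure D2:**
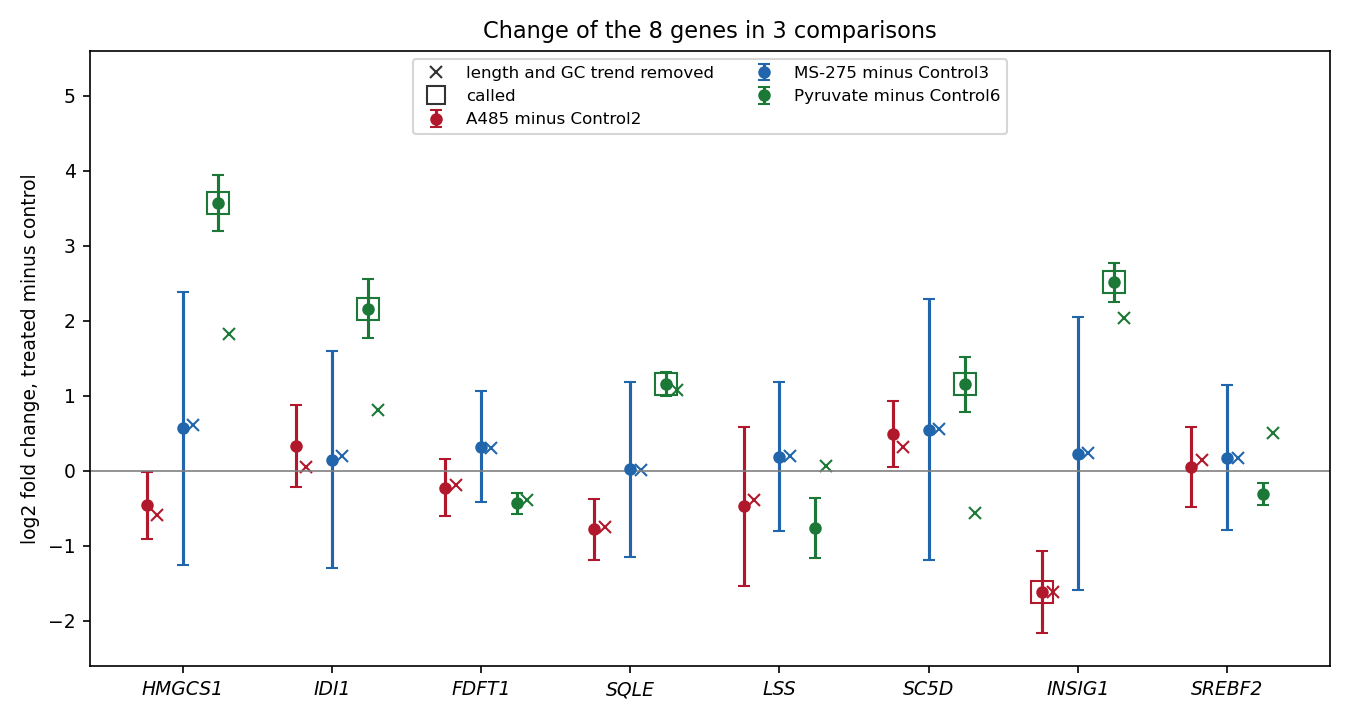
Log2 fold change of each of the 8 genes (points, treated minus control) with 95% confidence intervals from limma in the 3 comparisons, squares around called genes, and crosses for the value after the length and GC trend was removed from each library. INSIG1 is called lower with A485, no gene is called with MS-275, and 5 genes are called higher with pyruvate, of which SC5D, at 1.15, moved to -0.57 without the trend.

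With MS-275, no member was called, and the fitted log2 fold change was above 0 for all 8, from 0.02 for SQLE to 0.56 for HMGCS1. Replicate 1 was the higher library for 8 of 8 members in Control3 and for 7 of 8 with MS-275, and treated and control libraries overlapped for 7 of the 8 genes.

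HMGCS1 was at 3346 and 1551 in Control3 and at 5938 and 1910 with MS-275. The second MS-275 library lay below the first control, and within replicate numbers the log2 differences were 0.83 and 0.30. INSIG1 was at 5300 and 2116 in Control3 and at 6550 and 2346 with MS-275.
Its within-number differences of 0.31 and 0.15 were small beside the difference of 1.32 between the 2 controls and of 1.48 between the 2 treated libraries. SC5D was at 4146 and 1769 in Control3 and at 6486 and 2414 with MS-275, differences of 0.65 and 0.45 within numbers.
An early gene and a late gene of the pathway and the retention protein thus shared 1 layout, with the first library of each group on top.

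SQLE was at 5482 and 3785 in Control3 and at 6371 and 3331 with MS-275. IDI1 was at 4537 and 2732 in Control3 and at 6076 and 2490 with MS-275. These 2 genes were higher with MS-275 in replicate 1 and lower in replicate 2.
SREBF2 was at 10584 and 6861 in Control3 and at 11096 and 8319 with MS-275. LSS was at 1061 and 736.7 in Control3 and at 1193 and 849.0 with MS-275. Both were higher within each number and overlapped between groups.
FDFT1 was the exception to the replicate pattern. It was at 9310 and 8581 in Control3 and at 11016 and 11305 with MS-275, so both treated libraries lay above both controls, with a log2 fold change of 0.32 (CI -0.42 to 1.06, adjusted p = 0.814, limma).

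In limma, 0 of 8 members and 0% of 15883 genes were called, and 1730 genes had an unadjusted p under 0.05. On the recovered reads edgeR called 0 genes and DESeq2 575, with 0 members in both. With 1 library left out, 33 (without MS-275 replicate 1), 46 (without MS-275 replicate 2), 424 (without Control3 replicate 1) and 444 genes (without Control3 replicate 2) were called, and 0 members in each case. Only 1 member had groups that did not overlap, against 38.9% of all genes. Within replicate numbers, 6 members were higher in both and 2 had opposite signs, where 38.6% of all genes were higher in both. The median log2 fold change of the members was 0.21, against -0.01 over all genes. The confidence interval of HMGCS1 in limma, which did not use the replicate number, ran from -1.25 to 2.38 on the log2 scale. Large changes either way lay inside it. With the replicate number in the fit, its value of 0.56 had a standard error of 0.13 in place of 0.70. The labels do not say that a number pairs libraries. Leaving 1 library out left the replicate numbers unequal between groups. Without MS-275 replicate 1 the fitted value turned negative for HMGCS1 (-0.25), INSIG1 (-0.51), IDI1 (-0.50), SQLE (-0.45), SC5D (-0.17), LSS (-0.06) and SREBF2 (-0.03), while FDFT1 stayed positive. Without Control3 replicate 2 it was negative for SQLE, IDI1, LSS, INSIG1, SREBF2 and SC5D, from -0.435 for INSIG1 to -0.07 for SC5D.

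No gene of the other 6 lists was called by limma with MS-275, while DESeq2 called LIPA higher and CYP27A1 lower (adjusted p = 0.00678 and 0.0326, DESeq2). Among the other synthesis enzymes, HSD17B7 had a log2 change of 1.01 (adjusted p = 0.377, limma). INSIG2 and STARD4, a sterol carrier, had log2 fold changes of 0.94 and 1.12 (adjusted p = 0.454 and 0.705, limma). For the efflux list, ABCG1, a sterol transporter, and SMPDL3A had values of 2.63 and -0.98 (adjusted p = 0.429 and 0.577, limma). LIPA, the lysosomal lipase that frees cholesterol from esters, was at 4318 and 4486 in Control3 and at 12789 and 15587 with MS-275, and CYP27A1 had a log2 change of -1.64 (adjusted p = 0.209 and 0.278, limma). ELOVL5 and ACACA for fatty acids had values of 0.55 and 1.53, and FNTB and COQ2 for isoprenoids -0.78 and -0.58 (all 4 with adjusted p between 0.649 and 0.686, limma). The list medians were 0.30 for the other synthesis enzymes, 0.50 for the SREBP machinery and 0.43 for fatty acid synthesis, and -0.19 for isoprenoid use.

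Pyruvate treatment went with higher expression of 5 of the 8 genes, HMGCS1, INSIG1, IDI1, SQLE and SC5D, at 11.9-fold, 5.70-fold, 4.48-fold, 2.22-fold and 2.22-fold. FDFT1, LSS and SREBF2 were lower by less than 2-fold. The changes of all genes in this comparison followed the base composition of the transcript, and after that trend was removed HMGCS1, INSIG1 and SQLE were still called higher, while SC5D, LSS and SREBF2 changed sign.

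HMGCS1 was at 76.6 and 94.4 in Control6 and at 1034 and 1003 with pyruvate. Both treated libraries lay far above both controls, and the log2 fold change was 3.57 (CI 3.20 to 3.94, adjusted p = 5.06e-09, limma). INSIG1 was at 324.1 and 283.2 in Control6 and at 1663 and 1802 with pyruvate, a log2 fold change of 2.51 (adjusted p = 4.5e-09, limma).
HMGCS1 and the gene of the retention protein thus showed the 2 largest increases among the members. IDI1 was at 149.3 and 214.8 in Control6 and at 831.7 and 779.6 with pyruvate, a log2 fold change of 2.16 (adjusted p = 4.94e-07, limma). SQLE was at 1586 and 1517 in Control6 and at 3462 and 3441 with pyruvate, a log2 fold change of 1.15 (adjusted p = 5.43e-08, limma).
No treated library came near a control for these genes. In Control6, replicate 1 minus replicate 2 was -0.52 for IDI1, -0.30 for HMGCS1, 0.19 for INSIG1 and 0.06 for SQLE on the log2 scale. The median absolute difference of all genes there was 0.17. SC5D was at 209.2 and 174.7 in Control6 and at 426.7 and 424.0 with pyruvate, also a log2 fold change of 1.15 (adjusted p = 5.72e-05, limma).

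FDFT1 was at 5656 and 5956 in Control6 and at 4317 and 4254 with pyruvate, a log2 fold change of -0.44 (adjusted p = 5.06e-05, limma). SREBF2 was at 4973 and 4701 in Control6 and at 3766 and 4032 with pyruvate, a log2 fold change of -0.31 (adjusted p = 0.00126, limma). Both fell by less than the fold threshold, with no overlap.
LSS was at 803.4 and 689.0 in Control6 and at 354.9 and 539.4 with pyruvate, a log2 fold change of -0.76 (adjusted p = 0.00217, limma). Its 2 treated libraries lay apart, and without pyruvate replicate 2 its value was -1.07 and it was called lower.

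Of the 8 members, 5 were called higher and 0 lower, where limma called 54.1% of 12013 genes, 31% higher and 23.1% lower. All 8 members had groups that did not overlap, as had 90.5% of all genes. The members' median was 1.15 and that of all genes -0.01, while the upper quartile of all genes was 1.40, so the changes of SQLE and SC5D lay within the middle spread of the transcriptome and HMGCS1 at percentile 98.6 of it. With library totals set equal, all genes had a median of 0.30 and the split of calls went from 3726 higher and 2777 lower to 4402 and 1741, with 5 members called higher on that scale too.

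Across 11888 genes with a GC value, the log2 fold change with pyruvate fell with GC content, with a Spearman correlation across genes of -0.716, against -0.113 with A485 and -0.017 with MS-275, genes not being independent replicates. Ordered by GC content and cut into 20 bins of equal size, the genes had a median log2 fold change between 1.61 and 1.95 in the 4 bins of lowest GC and of -1.22 in the highest. The members that rose had GC contents from 36.9% (SC5D) to 46.5% (SQLE), and LSS and SREBF2 had 58.1% and 58.0%. Compared with genes of its own bin, HMGCS1 (39.0% GC) was at percentile 94.6, where the bin median was 1.95, and INSIG1 (44.8% GC) at percentile 91.9, where it was 0.73. SREBF2 was at percentile 78.1, SQLE at 75.1, IDI1 at 66.0 and LSS at 57.4, and SC5D and FDFT1 were at 30.3 and 26.6.

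**Figure D3:**
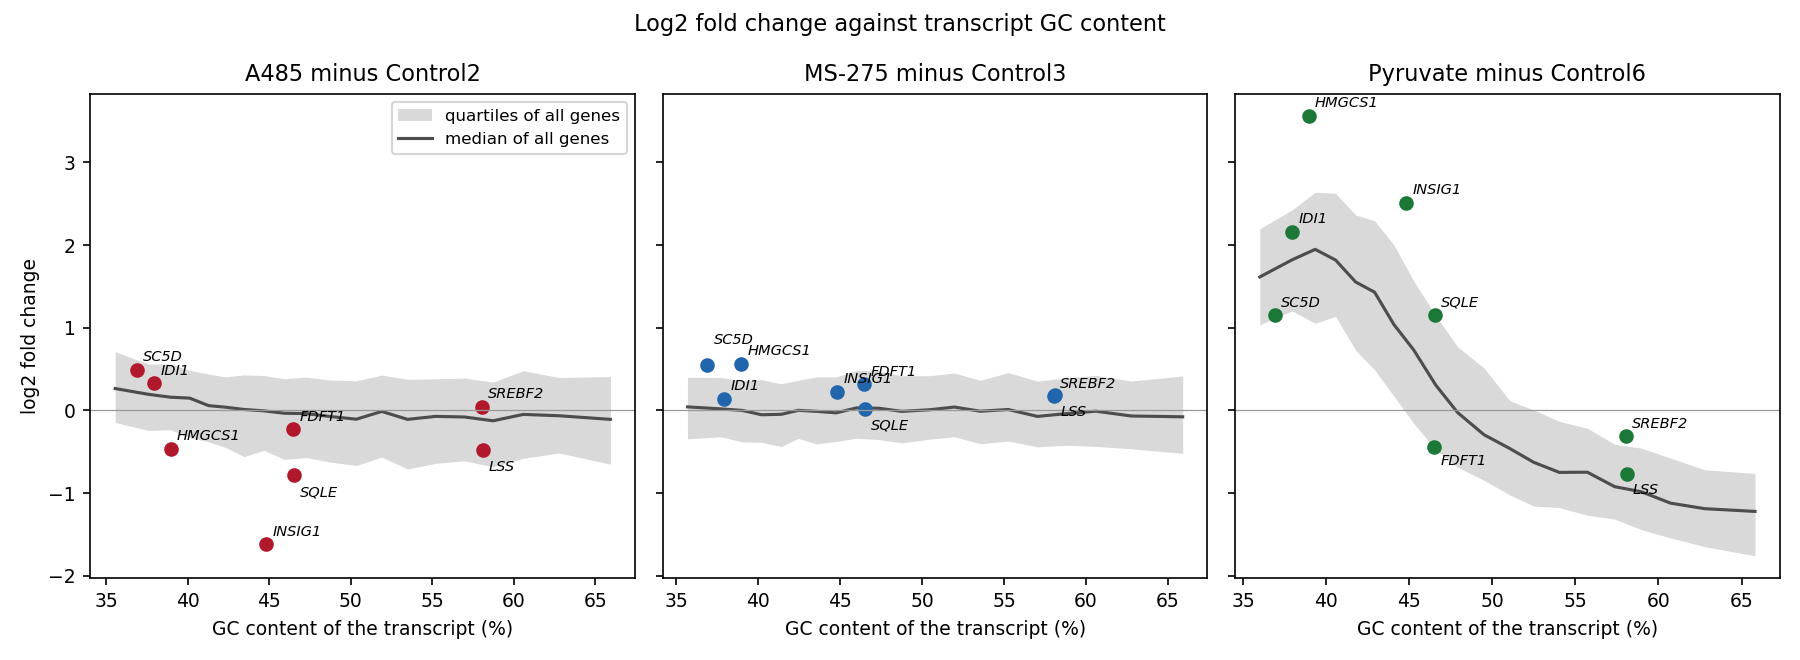
Log2 fold change (treated minus control) against GC content of the transcript in percent, with the median (line) and quartiles (band) of all genes in 20 bins and the 8 genes as points, 1 panel per comparison. The line is nearly flat with MS-275 and goes from 0.265 in the lowest GC bin to -0.108 in the highest with A485. With pyruvate it falls from 1.95 to -1.22, and HMGCS1, INSIG1 and SREBF2 lie above the band and SC5D inside it.

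When a smooth trend on transcript length and GC content was removed from each library, HMGCS1 had a log2 fold change of 1.82, INSIG1 of 2.03 and SQLE of 1.07 (adjusted p = 1.7e-05, 3.99e-06 and 4.8e-06, limma), and these 3 were called. IDI1 was at 0.81 and no longer called. SC5D was at -0.57, LSS at 0.07 and SREBF2 at 0.50 (adjusted p = 0.00417, 0.788 and 0.000172, limma), all 3 opposite in sign to the values above. FDFT1 remained at -0.40. The median of all genes was 0.20 on this scale and 3569 genes were called in place of 6503, 2431 of them higher, or 20.4% of those tested. The part that base composition has in the increases was not tested beyond this, and it cannot be told apart from the treatment because both pyruvate libraries differ from both controls in it.

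Of the 15 other synthesis enzymes 4 were called higher and 2 lower, with a median of -0.53. LBR, the second sterol C14-reductase and a protein of the nuclear envelope, rose from 81.5 and 121.5 to 1293 and 1281, and MSMO1, a sterol C4 oxidase, from 426.3 and 525.2 to 2789 and 2773 (adjusted p = 9.24e-09 and 2.75e-09, limma). DHCR7, a late enzyme of the pathway, fell from 3074 and 3134 to 1394 and 1410 (adjusted p = 6.41e-08, limma). After the trend was removed, LBR and MSMO1 were still called, at 2.11 and 1.31, and DHCR7 was at 0.06.

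In the SREBP machinery 3 of 10 genes were called higher and 2 lower. SCAP, the escort of SREBP2, and NPC2, which carries cholesterol out of lysosomes, had log2 fold changes of -1.78 and -1.67, and MBTPS2, a protease that frees SREBP2, and TMEM97 had 2.10 and 1.67 (all 4 with adjusted p of 5.75e-07 or less, limma). Without the trend NPC2 and TMEM97 kept their calls, at -1.39 and 1.26, SCAP was at -0.74 and MBTPS2 at 0.46.

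Of the 6 efflux genes 1 was called higher and 3 lower, NR1H2 and NR1H3, which encode the LXR receptors, at -1.16 and -1.11, APOE at -1.52 and SMPDL3A at 1.57, and none was called without the trend. Of 4 oxysterol and ester genes 3 were called higher, SOAT1, which esterifies cholesterol, NCEH1, which frees it, and CYP27A1. SOAT1 rose from 563.8 and 490.4 to 2433 and 2411, and without the trend CYP27A1 was still called higher, at 2.82, while LIPA, at 0.23 with the trend, was called lower, at -1.05. Of 10 fatty acid genes 5 were called higher and 2 lower. SCD rose from 6072 and 5299 to 15618 and 15764 and ELOVL5 from 1122 and 1194 to 3277 and 3596, whereas ACSS2 and ACLY, which supply acetyl-CoA, had log2 fold changes of -1.53 and -1.02. Without the trend SCD, FADS1 and FADS2 were called higher, at 1.05, 1.16 and 1.81, ELOVL5, ACSS2 and ACLY were at 0.23, -0.58 and -0.49 and not called, and ACSL3 turned from 1.10 to -0.61. Of 9 isoprenoid genes 5 were called higher and 1 lower, among them NUS1 at 2.39, FNTA at 1.62, PGGT1B at 1.81 and DHDDS at -1.15 (limma). Without the trend FNTA, GGPS1 and PDSS1 were called higher, at 1.13, 1.01 and 1.345, and NUS1, PGGT1B and DHDDS, at 0.70, 0.42 and -0.38, were not. The trend-free medians were 0.66 for the members, 0.56 for the other synthesis enzymes, 0.67 for fatty acid synthesis and 0.70 for isoprenoid use. They were 0.10 for the SREBP machinery, 0.18 for the efflux genes and 0.23 for the oxysterol and ester genes, beside 0.20 for all genes.

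**Figure D4:**
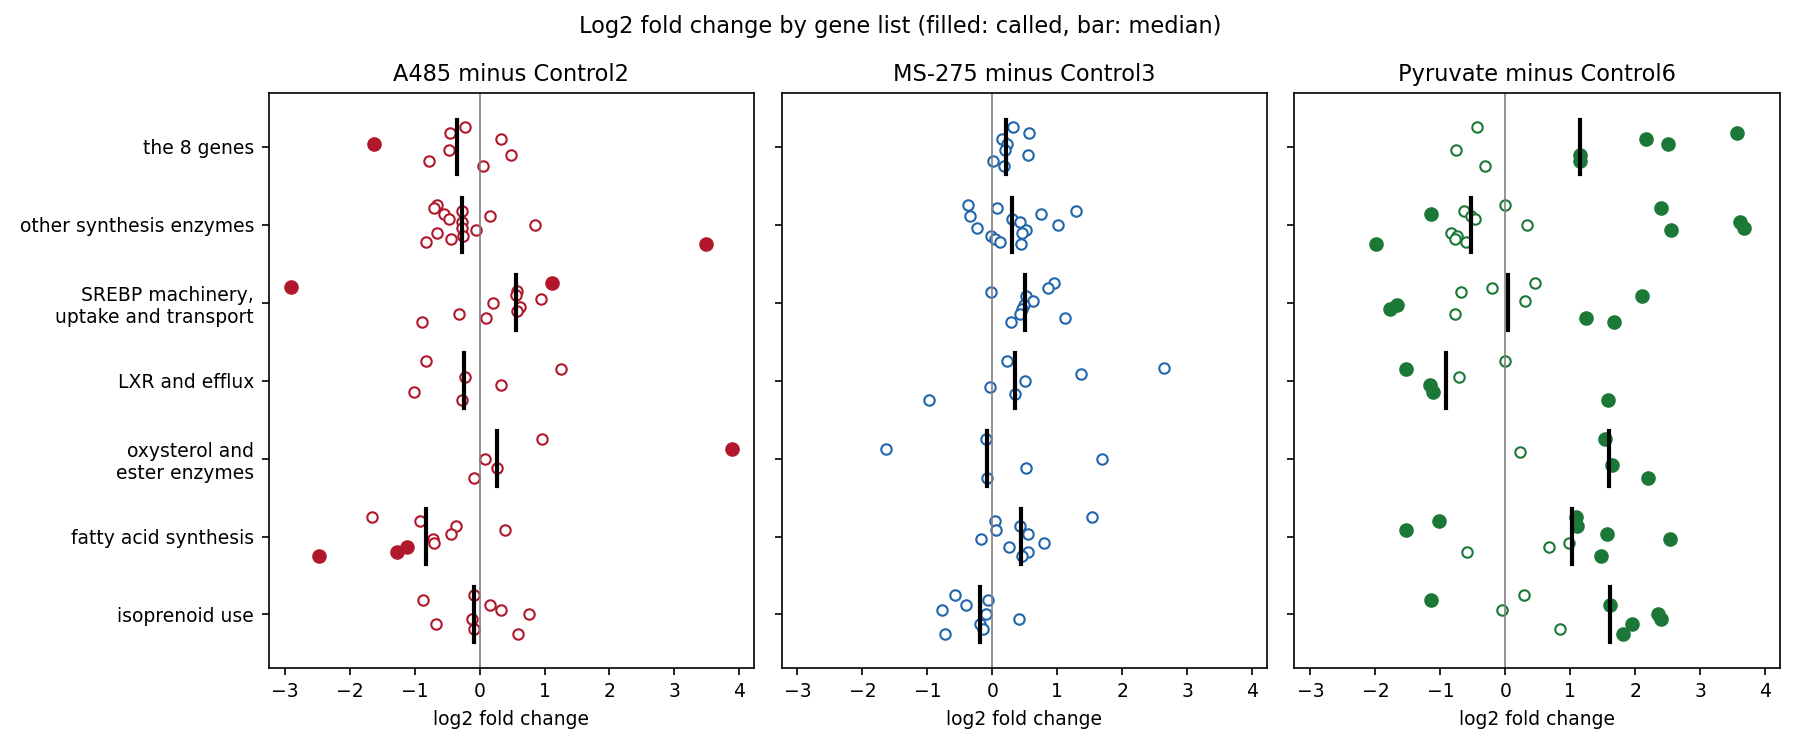
Log2 fold change (treated minus control, no trend removed) of every tested gene of the 7 lists in the 3 comparisons, with filled points for called genes, open points for the rest and a bar at the list median. With A485 the fatty acid list has the lowest median, -0.82, with MS-275 no point is filled, and with pyruvate the lists hold called genes on both sides of 0 except the 8 genes and the oxysterol list.

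The 3 effects were compared in 1 limma fit over the 12 libraries and 11994 genes, each effect taken against its own controls. That fit used 1 spread per gene, shared by all 6 groups. HMGCS1 had a standard error of 0.69 in all 3 contrasts. In the separate comparisons it was 0.18 with A485, 0.70 with MS-275 and 0.17 with pyruvate. For FDFT1 the contrasts had 0.21, below the 0.28 of its separate MS-275 comparison. The A485 effect lay below the pyruvate effect, with differences of -4.03 for HMGCS1, -4.13 for INSIG1, -1.94 for SQLE and -1.83 for IDI1 on the log2 scale (adjusted p = 0.00146, 0.00137, 0.00422 and 0.0272, limma), where 48.3% of all genes differed at an adjusted p under 0.05. The MS-275 effect lay below the pyruvate effect for the same 4 genes, with differences of -3.00, -2.28, -1.14 and -2.02, and above it for FDFT1, with 0.76 (adjusted p between 0.00681 and 0.0461, limma), against 46% of all genes. These values leave the base composition trend in. Without it HMGCS1, INSIG1 and SQLE still passed in the first contrast and HMGCS1 alone of the 5 in the second, and SC5D passed in both with the pyruvate effect as the lower one. Between the A485 and MS-275 effects 0 members passed, against 10.2% of all genes, and 2 had an unadjusted p under 0.05. INSIG1 had the largest such difference, -1.85 (CI -3.42 to -0.27, adjusted p = 0.142, limma), and FDFT1 had -0.54 (adjusted p = 0.148, limma).

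Over the 12 libraries, the members did not form 1 group. As deviations from the mean of the own experiment, SQLE, HMGCS1 and INSIG1 had Pearson correlations of 0.91, 0.90 and 0.88 with the mean of the other 7 members, IDI1 and SC5D 0.80 and 0.79, SREBF2 0.08, LSS -0.16 and FDFT1 -0.39. The 5 genes most like the mean of the 8, among 9761 compared, were IL6ST (0.990), TEAD1 (0.986), MACF1 (0.985), FILIP1L (0.984) and LMAN1 (0.983), none of which is in the lists. The points share libraries, depth and base composition, and the correlations are descriptions.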

How the data were processed

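RNA-seq was measured in 12 libraries of IMR90 cells, 2 per group in 6 groups, taken from the labels of the series. The authors trimmed reads with Trim Galore 0.6.10, aligned them to hg38 with HISAT2 2.2.1, handled alignments with SAMtools 1.7, counted reads per gene with featureCounts 2.0.6 and scaled each experiment with DESeq2 1.34.0. The deposited values are this signal, reads divided by a size factor, and all of them came back to whole reads within 0.01 once the worth of 1 read had been estimated in each library from the gaps between low values. Whether counting used strand is not given in the sources used here.

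Each comparison took its 4 libraries and the genes averaging 10 or more in them, tested on log2(value + 1) with limma 3.58.1 (eBayes with trend, two-sided, Benjamini-Hochberg), so fold changes are on the log2(value + 1) scale. Length and GC content came from GENCODE canonical transcripts and covered over 98% of listed genes. The trend was a spline with 5 degrees of freedom per library. Intervals are 95%. The script was tested on simulated data. The 8 genes and the lists were chosen with earlier results of these data known. In each comparison the text names the called genes of a list, at most 4 with the smallest p, or, where fewer than 2 were called, the 2 with the smallest p. Genes named beyond this were chosen after their values were seen. Some genes of the lists are counted but not reported here by name. Figures were drawn with matplotlib.

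Alternatives were other pseudocounts, filters, scalings, fold thresholds and eBayes settings, a replicate block, 1 shared fit, removal of the trend, 1 library left out, and edgeR 4.0.16 and DESeq2 1.42.0 on the recovered reads. Trend removal with a replicate block was added after seeing the data. The labels do not say that a replicate number pairs libraries. Deviations of libraries with the same number from their group means correlated at 0.316 over genes in the A485 experiment, 0.728 in the MS-275 experiment and 0.002 in the pyruvate experiment, with 2 pairs in each.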

Additional observations from a re-analysis of the deposited data

Results flagged for a closer look

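The results below are members whose effects differed between experiments in the shared limma fit, each effect taken within its own experiment. The A485 effect minus the pyruvate effect was -4.03 for HMGCS1, -1.94 for SQLE, -1.83 for IDI1 and -4.13 for INSIG1 on the log2 scale. Of these, INSIG1 was called in both comparisons, lower with A485 and higher with pyruvate. The MS-275 effect minus the pyruvate effect was -3.00 for HMGCS1, -1.14 for SQLE, -2.02 for IDI1 and -2.28 for INSIG1. FDFT1 went the other way, at 0.76. Of all genes, 48.3% differed in the first contrast and 46% in the second at an adjusted p under 0.05. With the length and GC trend removed, IDI1 did not pass in the first contrast. Of the genes named for the second, only HMGCS1 did. The experiments were run and normalised separately, so a difference between treatments and a difference between experiments cannot be told apart.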

How the results depend on the processing

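Changes of under 2-fold could not be called because of the fold threshold. INSIG1 was the member called with A485 in all alternatives but eBayes without the trend (0 members and 840 genes), the shared fit (0 members) and the fits that left out an A485 library. SQLE, with an adjusted p of 0.0342 in the main fit, had 0.107 in eBayes without the trend and 0.175 with equal library totals (limma). Leaving out 1 library gave 0 to 1 members and 229 to 1284 genes for A485, 33 to 444 genes for MS-275, and log2 fold changes from -0.97 to 0.018 for LSS and -0.16 to 0.25 for SREBF2 with A485. With MS-275 those ranges were -0.25 to 1.38 for HMGCS1, -0.45 to 0.48 for SQLE, -0.50 to 0.79 for IDI1, -0.076 to 0.45 for LSS, -0.51 to 0.97 for INSIG1, -0.14 to 0.49 for SREBF2 and -0.17 to 1.26 for SC5D. Leaving an arm with 1 library assumes that it varies like the others. A fold minimum of 0.58, or none, called 2 members with A485, and no minimum called 8 with pyruvate. Without a minimum, 2032 of 16084 genes passed with A485 and 9713 of 12013 with pyruvate, so most genes passed there too. Equal library totals called 2578 genes with A485, put FDFT1 at 0.17 with A485 and SQLE at -0.13 with MS-275, and put the A485 minus MS-275 differences of SREBF2 and SC5D at 0.41 and 0.48. Quantile normalization put SQLE at -0.019 with MS-275, and with pyruvate SC5D lost its call and LSS was called lower. Over 18 alternatives with the same fold threshold, SC5D was called higher with pyruvate in 14. The shared fit called 488 genes with MS-275.

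With the length and GC trend removed, pyruvate gave 3 members and 3569 genes, with LSS, SREBF2 and SC5D at 0.069, 0.50 and -0.57, and the replicate block added to it gave 3 members and 3631 genes with these 3 at 0.069, 0.50 and -0.57. The A485 minus pyruvate differences of LSS, SREBF2 and SC5D became -0.48, -0.37 and 0.84, the MS-275 minus pyruvate differences of SREBF2 and SC5D -0.30 and 1.03, with 2 members passing, and the A485 minus MS-275 difference of IDI1 -0.088.

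The labels do not pair the libraries. A replicate block called 2183 genes with MS-275 (1958 with the trend also removed) and 0 members, and HSD17B7, another sterol enzyme, was called higher. HMGCS1, FDFT1 and SC5D then had adjusted p-values of 0.00217, 0.0214 and 0.000936 in limma, at unchanged log2 fold changes. Without a block, 46% of all genes passed for MS-275 minus pyruvate and 10.2% for A485 minus MS-275. The shares with a block within each experiment were not counted. Such a block gave 8 members in the first of these contrasts and 4 in the second, where 0 passed without it. These 4 were INSIG1, SQLE, HMGCS1 and FDFT1 (adjusted p = 0.00038, 0.0085, 0.00982 and 0.0175, limma). In the A485 and pyruvate comparisons the block called 1 and 5 members, and 15.5% and 54.2% of all genes. The cause of these changes was not tested. On the recovered reads, edgeR and DESeq2 called 1 member each and 1664 and 2325 genes with A485, 0 members and 0 and 575 genes with MS-275, and 5 members each and 6463 and 6419 genes with pyruvate.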
